A study of Homo sapiens with 20 samples.

Results

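Differentiated Caco-2 cells kept for 8 h with live Lactobacillus salivarius Ls-33 were compared directly with cells kept for 8 h with live L. acidophilus NCFM. The members are set by sample title: the 2 arrays of each strain's co-culture, 4 of the 20 arrays in the series. This comparison and the gene lists below were chosen with earlier results of these data known. Caco-2 is a human colon adenocarcinoma line that takes on an enterocyte-like state when confluent. It was grown here on inserts under a 5-day differentiation scheme, and either strain was applied on the apical side, without antibiotics, at 20 to 100 bacteria for each Caco-2 cell. The ratio reached with each strain is not given in the sources used here, so strain and bacterial number cannot be told apart. Other groups, with 2 arrays each, are used for comparison. They are cells in medium alone for 8 h and 8 h co-culture with Bifidobacterium animalis ssp. lactis 420 (B. lactis 420). They also include cells kept 24 h with 10% cell-free culture supernatant of Ls-33 or of NCFM. Supernatant of B. lactis 420 (24 h, 10%, 2 arrays) completes the 14 arrays of the probiotic set. All 14 arrays enter the low-signal filter and the estimate of spread behind the p-values. All of these were labelled from 5 µg of total RNA on Affymetrix HG-U133 Plus 2.0 arrays. The labels do not say whether 2 arrays of a group came from separate cultures, so the p-values measure only the spread between arrays, which may be technical.

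Intestinal epithelial cells read surface components of bacteria through pattern recognition receptors, and the best-known output of these is NF-kB, a transcription factor held in the cytoplasm by inhibitor proteins. NF-kB targets include chemokines that recruit leukocytes, adhesion molecules and the factor's own inhibitors. Interferon-stimulated genes form a separate arm of the innate response, and STAT3, activated by cytokines of the interleukin-6 family, drives acute-phase proteins. Lactobacilli are Gram-positive, carry lipoteichoic acid and peptidoglycan rather than lipopolysaccharide, and differ from strain to strain in how strongly they elicit these outputs.

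All levels below are log2 RMA signals on an arbitrary scale, and each difference is the Ls-33 mean minus the NCFM mean on that log2 scale. Each gene was read from 1 probe set, and 11865 of 19775 genes passed a filter on low signal set at 2.74. The filter took the mean over the 14 arrays, the Ls-33 co-culture arrays included. A gene could thus be tested because it was high with 1 strain, so shares among tested list members are not independent of the contrast. A gene is said to be called, or to rise or fall, when the limma fit across the 14 arrays of the probiotic set gave an adjusted p (Benjamini-Hochberg) under 0.05 over those 11865 genes.

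The strains differed at many genes, and the large differences ran one way. Of the genes tested, 1742 were called (14.7%), 965 of them higher with Ls-33 (8.13%) and 777 lower (6.55%). Counts of list members called, given below, are to be read beside these shares. Differences of at least 2-fold were called for 114 genes higher with Ls-33 (0.961%) and for 23 lower (0.194%). At 4-fold or more there were 27 genes higher and 0 lower, and at 8-fold or more 11 and 0. The median difference was 0.48 over the genes called higher and -0.48 over those called lower, against -0.01 over all genes tested. Most calls were modest. The 11 genes at 8-fold or more were LRG1, CASP5, OLR1, CEACAM7, PI3, KYNU, C3, CXCL10, ICAM1, CXCL8 and TNFRSF9, each higher with Ls-33. Arrays of 1 strain did not overlap those of the other for 6494 genes (54.7%), so a lack of overlap alone says little with 2 arrays a group. The total fell to 963 genes without Ls-33 replicate 1 and to 1026 without Ls-33 replicate 2, and 906 and 976 of those were calls of the whole set in the same direction. The split depended on scaling: renewed quantile normalization gave 786 higher and 1127 lower, so 41.1% of calls were higher in place of 55.4%.

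Median signal lay between 2.66 and 2.72 on the 20 arrays, values that quantile normalization in RMA makes alike. The log2 difference between array pairs over all genes had an SD of 0.216 within Ls-33 and 0.253 within NCFM, and of 0.323 to 0.335 between the strains. The actin probe sets gave a 3' minus 5' signal, a measure of RNA integrity, of 1.26 and 1.23 with Ls-33 and of 1.25 and 1.54 with NCFM, which overlap. On the 8 h medium arrays it was lower, 0.88 and 0.80, and the part of this in any comparison with medium was not tested. The corresponding GAPDH values, 0.08 and 0.06 with Ls-33 and 0.10 and 0.11 with NCFM, do not overlap but differ by under 0.1, and their part in the results was not tested. The label was checked against markers: VIL1, which encodes the brush-border protein villin, read 12.01 and 11.94 with Ls-33 and 12.12 and 12.03 with NCFM. That probe set was not called (difference -0.10, adjusted p = 0.115), whereas 3 other VIL1 probe sets were called lower with Ls-33, at -0.33, -0.97 and -1.16. All 12 enterocyte markers passed the filter, against 3 of 11 measured markers of goblet, Paneth and enteroendocrine cells, 3 of 7 of leukocytes and 6 of 10 of fibroblasts and endothelium. None of the 9 leukocyte, fibroblast and endothelial markers tested was called and of the secretory markers LYZ alone was. In these bulk RNA samples, fewer cells of a type and less RNA per cell cannot be told apart.

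The most different gene was LRG1, a secreted leucine-rich glycoprotein of the acute phase. It read 9.11 and 9.19 with Ls-33 and 4.24 and 4.18 with NCFM, a difference of 4.94 (SE 0.19, 30.7-fold, adjusted p = 3.26e-13). The 8 h medium mean was 4.55, so of these 2 strains NCFM lay near medium and Ls-33 was high. CASP5, an inflammatory caspase of the non-canonical inflammasome, gave the same picture. It read 8.33 and 8.26 with Ls-33 and 3.27 and 3.51 with NCFM, a difference of 4.91 (SE 0.20, 30.0-fold, adjusted p = 6.93e-13), with a medium mean of 3.52. OLR1, a scavenger receptor for oxidised lipoprotein, read 9.15 and 9.28 against 4.60 and 4.66 and so differed by 4.58 (23.9-fold, adjusted p = 1.8e-13). Here the NCFM arrays were themselves above the medium mean of 3.49.

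CEACAM7, a carcinoembryonic antigen relative of the colonic surface, read 9.15 and 9.19 with Ls-33 and 4.87 and 4.32 with NCFM (23.8-fold, adjusted p = 5.26e-10). PI3, which encodes the elastase inhibitor elafin, read 9.27 and 9.41 against 5.07 and 4.86 (20.8-fold, adjusted p = 6.93e-13). KYNU, the kynureninase of tryptophan breakdown, read 7.07 and 7.23 against 3.33 and 2.69 (17.6-fold, adjusted p = 8.95e-09). In each of these genes the strains did not overlap, and the gap between strains was several times that between arrays of 1 strain. C3, the central complement component, read 8.14 and 8.10 with Ls-33 and 4.37 and 3.86 with NCFM (16.0-fold, adjusted p = 3.82e-11). Of the remaining large rises, TNFRSF9 (4-1BB, a co-stimulatory receptor of the TNF receptor family) differed by 3.07, NNMT (nicotinamide N-methyltransferase) by 2.95 and PIGR, the receptor that carries IgA across epithelium, by 2.56. For CXCL10 and PIGR both NCFM arrays lay under the filter floor, so the size of those differences rests on signals near background. The NCFM arrays lay under the floor for the CXCL8 probe set used as well, but another CXCL8 probe set, at 4.61 with NCFM and 7.68 with Ls-33, gave 3.07 (adjusted p = 2.21e-10). The other KYNU probe sets gave smaller differences of 0.94, 1.76 and 1.59, all called. Other TNFRSF9 probe sets gave 2.15 (called) and 0.54 (adjusted p = 0.0675), and another NNMT probe set above the floor gave 0.88 (called). The second PIGR probe set above the floor gave -0.21, so that gene rests on 1 probe set.

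**Figure D1:**
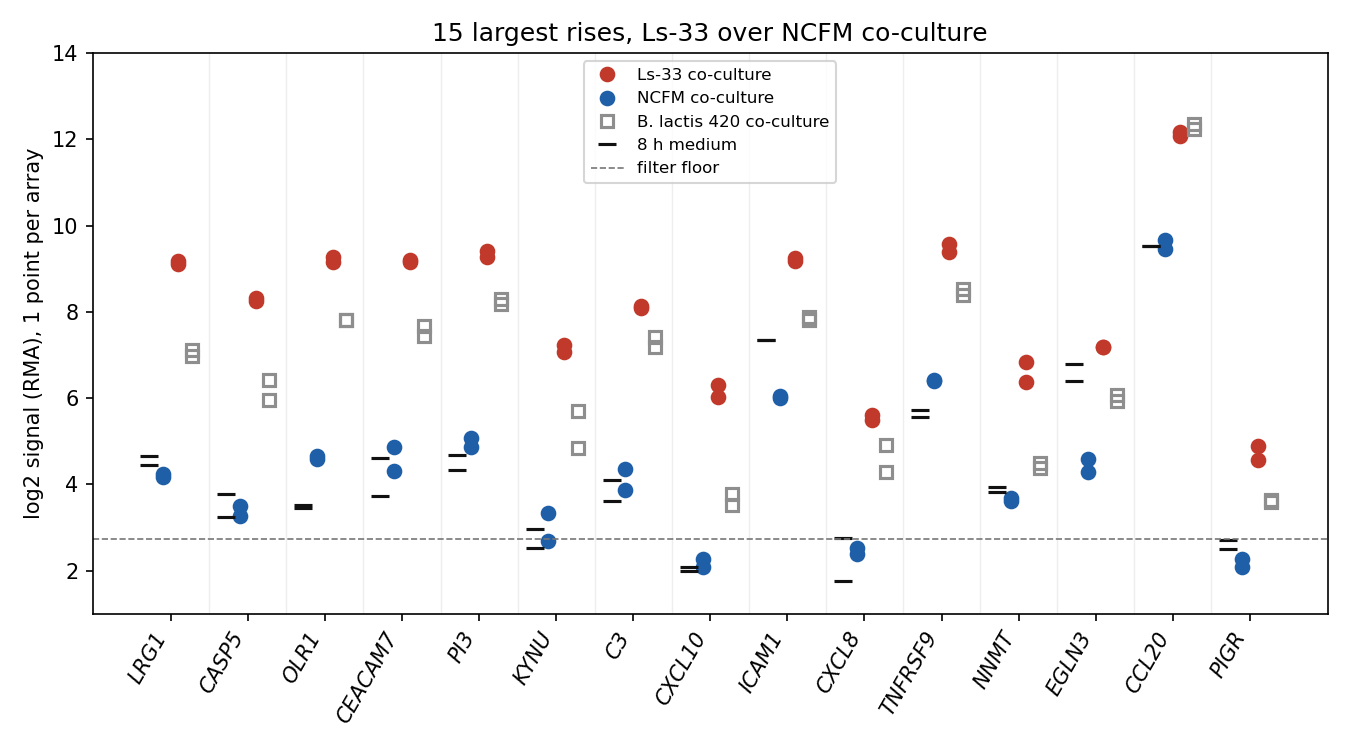
Log2 RMA signal (vertical axis) of the 15 genes with the largest rises, 1 point per array, for Ls-33, NCFM and B. lactis 420 co-culture and 8 h medium, with the filter floor dashed. The Ls-33 points lie above the NCFM points for every gene plotted; B. lactis 420 lies between them except for CCL20, where its mean of 12.29 is above both Ls-33 arrays.

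Of the 15 largest rises, 11 had an upstream sequence in the RefSeq promoter table. In 5 of these the 250 bases before the transcription start held a match to an NF-kB-type motif, and those 5 are shown because they held one. Each is written 5' to 3' on the gene's own strand, in GRCh38.p14, with matches in capitals. The positions are chr4:73740319-73740568 (plus strand) for CXCL8, chr4:76023498-76023747 (minus) for CXCL10, chr19:10270870-10271119 (plus) for ICAM1, chr1:7940840-7941089 (minus) for TNFRSF9 and chr2:227813592-227813841 (plus) for CCL20.
CXCL8: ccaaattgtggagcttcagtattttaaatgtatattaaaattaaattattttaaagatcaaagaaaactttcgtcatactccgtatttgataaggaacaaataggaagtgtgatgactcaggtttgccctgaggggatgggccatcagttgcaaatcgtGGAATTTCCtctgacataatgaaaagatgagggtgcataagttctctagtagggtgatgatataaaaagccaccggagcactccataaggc
CXCL10: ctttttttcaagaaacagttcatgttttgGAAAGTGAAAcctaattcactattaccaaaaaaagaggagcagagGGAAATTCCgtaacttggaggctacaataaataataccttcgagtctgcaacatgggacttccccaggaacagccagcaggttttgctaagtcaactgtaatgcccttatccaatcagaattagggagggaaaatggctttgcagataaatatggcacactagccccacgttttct
ICAM1: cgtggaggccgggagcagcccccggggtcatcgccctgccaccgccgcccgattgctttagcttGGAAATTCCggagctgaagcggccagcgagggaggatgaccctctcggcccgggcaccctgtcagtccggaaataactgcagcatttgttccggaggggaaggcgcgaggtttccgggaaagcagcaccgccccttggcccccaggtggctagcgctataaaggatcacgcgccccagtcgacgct
TNFRSF9: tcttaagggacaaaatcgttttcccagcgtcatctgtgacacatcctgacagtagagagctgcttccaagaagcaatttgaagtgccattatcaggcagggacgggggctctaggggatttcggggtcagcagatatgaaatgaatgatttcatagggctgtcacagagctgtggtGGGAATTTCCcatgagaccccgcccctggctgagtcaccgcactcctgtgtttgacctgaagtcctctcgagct
CCL20: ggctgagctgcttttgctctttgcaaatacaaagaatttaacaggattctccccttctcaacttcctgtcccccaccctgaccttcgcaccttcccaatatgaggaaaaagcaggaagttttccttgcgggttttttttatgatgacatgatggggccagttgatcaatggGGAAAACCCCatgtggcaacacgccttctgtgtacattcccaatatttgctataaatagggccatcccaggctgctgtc
The motifs searched on both strands were GGAANTTCC and GGG, any 2 bases, TTTCC for NF-kB, which overlap each other in TNFRSF9, and TTTC, any 2 bases, TTTC for interferon response elements. Counting back from the start, the NF-kB-type match runs from -91 to -83 in CXCL8, from -176 to -168 in CXCL10, from -186 to -178 in ICAM1 and from -74 to -65 in TNFRSF9. In CCL20 it lies on the opposite strand, from -79 to -70. The earlier capitals in CXCL10 are the interferon-type match on the opposite strand, from -221 to -212. Of all 27305 promoters listed, 2.41% held an NF-kB-type match, over the genes tested 2.67%, over those called higher 4.32%, over those called lower 2.68% and over the 89 genes at least 2-fold higher with a promoter 10.1%. The interferon-type match stood in 3.07% of all promoters and in 2.29% of those of genes tested. It stood in 4.94% of those called higher, 0.945% of those called lower and 15.7% of those 2-fold higher. CASP5 held 2 overlapping interferon-type matches. Neither motif was matched in the 19 promoters of the 2-fold lower genes, and a match or its absence describes only these letters in this window. At the low shares over all genes tested, an absence in 19 promoters says little.

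Of the chemokines, 4 of the 7 that passed the filter rose with Ls-33 and 0 fell. CXCL8 and CXCL10 passed on their mean over the 14 arrays, with NCFM and medium means under the floor. The contrast therefore partly sets this share. CCL20, which attracts CCR6-bearing lymphocytes and dendritic cells, read 12.08 and 12.16 with Ls-33 and 9.67 and 9.46 with NCFM (5.91-fold, adjusted p = 1.11e-14). CXCL8, the neutrophil attractant interleukin-8, read 5.61 and 5.49 against 2.38 and 2.53 (8.53-fold, adjusted p = 3.22e-08). CXCL10, the interferon-induced ligand of CXCR3, read 6.31 and 6.03 against 2.09 and 2.28 (15.8-fold, adjusted p = 5.79e-13). The arrays of the strains did not overlap in any of them, and the medium means of CCL20 (9.53), CXCL8 (2.25) and CXCL10 (2.03) were close to the NCFM arrays. The mucosal chemokine CXCL17 read 5.51 and 5.78 against 3.61 and 3.63, a difference of 2.02 (adjusted p = 7.63e-07). Over the 18 chemokines measured, filtered or not, the median difference was 0.25, beside -0.02 over all 19775 genes.

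NF-kB subunits and their feedback inhibitors differed by less than the chemokines named: 8 of 15 tested rose and 0 fell, with a median over 16 measured members of 0.28. TNFAIP3, the A20 deubiquitinase that ends NF-kB signalling, read 8.63 and 8.65 with Ls-33 and 7.45 and 7.19 with NCFM, a difference of 1.32 (adjusted p = 6.52e-07). NFKB2, the p100 subunit precursor, differed by 1.19 (adjusted p = 4.85e-05) and TNIP1, an A20 partner, by 1.13 (adjusted p = 2.05e-08). REL differed by 0.65 and RELB by 0.67 (adjusted p = 0.0153 and 0.0206), and each call was lost without at least 2 of the 4 arrays (highest adjusted p = 0.0855 and 0.187). NFKBIA, the inhibitor IkB-alpha, did not pass: it read 8.40 and 8.51 with Ls-33 and 8.33 and 8.16 with NCFM (difference 0.21, adjusted p = 0.111). The count of 8 was 6 without NCFM replicate 1, 4 without NCFM replicate 2, 3 without Ls-33 replicate 1 and 4 without Ls-33 replicate 2.

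Among interleukins and related cytokines 3 of 11 rose and 1 fell, IL1A at -0.60 (adjusted p = 0.0496). IL32, an epithelial pro-inflammatory cytokine, read 11.35 and 11.38 with Ls-33 and 9.52 and 9.33 with NCFM, a difference of 1.94 (adjusted p = 3.15e-13). EBI3, the shared chain of interleukins 27 and 35, differed by 1.51 (adjusted p = 2.4e-05). IL1B was called at 0.63 (adjusted p = 0.0383), but its signals of 3.28 and 3.52 against 2.62 and 2.92 were low, and the call was lost when an array was left out (highest adjusted p = 0.23). Of the TNF and TRAIL family 6 of 14 rose and 0 fell. TNFRSF1A, the main TNF receptor, differed by 0.82 (adjusted p = 0.000365), and the decoy TRAIL receptor TNFRSF10D by 0.55 (adjusted p = 0.000107). The TRAIL ligand TNFSF10 itself did not differ beyond its spread: it read 3.31 and 2.94 with Ls-33 and 3.36 and 2.80 with NCFM (difference 0.04, SE 0.20, adjusted p = 0.918), while its medium mean was 7.49. Both strains were thus far under medium for this gene. Of Toll-like and NOD receptors and adaptors 2 of 11 rose, the co-receptor CD14 by 0.83 (adjusted p = 0.0064) and the kinase IRAK2 by 0.85 (adjusted p = 0.0131). The IRAK2 call was lost without an array (highest adjusted p = 0.112), and the rises numbered 1 without Ls-33 replicate 1.

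Of the interferon-stimulated genes 13 of 24 rose and 0 fell, with a median of 0.30 over the 35 measured. OAS1, which makes the activator of RNase L, read 7.66 and 7.62 with Ls-33 and 6.16 and 5.97 with NCFM, a difference of 1.57 (adjusted p = 3.44e-08). OAS3, of the same family, differed by 1.17 (adjusted p = 0.000282), and IFIH1, the cytoplasmic RNA sensor MDA5, by 1.14 (adjusted p = 0.000243). IFITM1, an interferon-induced membrane protein that restricts viral entry, differed by 1.02 (adjusted p = 0.00247). These are moderate differences of 2-fold to 3-fold, with the medium mean of OAS1 (6.68) between the strains and that of OAS3 (4.10) under both. IRF1, a transcription factor of the interferon response, differed by 0.86 (adjusted p = 0.00382) and GBP1 by 1.24 (adjusted p = 0.00205), and both calls were lost when an array was left out (highest adjusted p = 0.0807 and 0.058). The count of 13 was 6 without NCFM replicate 1, 11 without NCFM replicate 2, 9 without Ls-33 replicate 1 and 7 without Ls-33 replicate 2, and 12 with 1 fall under quantile normalization.

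Antigen presentation through MHC class I followed at smaller sizes: 6 of 15 genes rose and 0 fell (median over 18 measured 0.28). B2M, the light chain of class I molecules, read 12.80 and 12.74 against 12.28 and 12.41, a difference of 0.42 (adjusted p = 1.82e-06). Another B2M probe set gave 0.50 (adjusted p = 2.99e-09), and one near the floor -0.11 (adjusted p = 0.822). The peptide-trimming enzymes ERAP1 and ERAP2 differed by 0.80 and 0.81 (adjusted p = 4.46e-05 and 0.00262). The peptide transporter TAP1 (0.89) and the immunoproteasome subunit PSMB9 (0.65) were called with adjusted p = 0.00534 and 0.00872, and each lost its call without at least 1 array (highest adjusted p = 0.0953 and 0.0814).

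JAK-STAT3 feedback and acute-phase genes had the highest share of calls of the lists with at least 10 genes tested, 8 of 11 higher and 0 lower. LRG1 led them. The 3 fibrinogen chains rose together: FGB read 9.33 and 9.17 with Ls-33 and 7.59 and 7.70 with NCFM (difference 1.61, adjusted p = 3.96e-09). FGG differed by 1.48 (adjusted p = 5.73e-09) and FGA by 1.36 (adjusted p = 5.37e-05). STAT3 itself read 9.84 and 9.89 against 9.02 and 8.59 (difference 1.06, adjusted p = 1.41e-06), and its feedback inhibitor SOCS3, at the low signals of 3.71 and 3.89 against 2.30 and 2.69, differed by 1.30 (adjusted p = 0.000679). Another SOCS3 probe set above the floor gave -0.20. The list median over 18 measured members was 0.19, of which 7 did not pass the filter. In complement, 4 of 12 genes rose and 0 fell. CFB, the alternative-pathway protease factor B, read 10.08 and 10.22 with Ls-33 and 8.17 and 8.10 with NCFM (4.05-fold, adjusted p = 3.26e-13), and C1S, a protease of the classical pathway, differed by 0.97 (adjusted p = 0.00219).

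Of antimicrobial proteins and antiproteases 5 of 10 rose and 1 fell. PI3 and PIGR are described above. LYZ, lysozyme, which cleaves the peptidoglycan of Gram-positive walls, read 7.76 and 7.80 with Ls-33 and 5.98 and 6.19 with NCFM (difference 1.69, adjusted p = 2.68e-07), and another LYZ probe set gave 0.58 (adjusted p = 0.15). Its medium mean of 7.34 lay between the strains, with NCFM further from medium than Ls-33. DEFB1, a constitutive beta-defensin, differed by 0.76 (adjusted p = 0.00772, lost without an array at 0.0743), and the lectin REG4 fell by 0.47 (adjusted p = 0.00149). The count of 5 rises was 3 without NCFM replicate 2 or without Ls-33 replicate 1.

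Of adhesion molecules and leukocyte ligands 6 of 13 rose, each by over 2-fold, 0 fell, and the count was 6 with any single co-culture array left out. ICAM1, the ligand of leukocyte integrin LFA-1, read 9.17 and 9.24 with Ls-33 and 6.003 and 6.05 with NCFM, a difference of 3.18 (SE 0.10, 9.05-fold, adjusted p = 5.33e-14). The medium arrays both read 7.35, so ICAM1 was above medium with Ls-33 and under it with NCFM. Of the 6, 4 were carcinoembryonic antigen relatives. Besides CEACAM7, CEACAM5 read 10.56 and 10.50 against 8.02 and 8.15 (difference 2.44, adjusted p = 1.8e-13), CEACAM1 differed by 1.40 (adjusted p = 6.93e-13) and CEACAM6 by 1.14 (adjusted p = 2.02e-11). For CEACAM1, a receptor bound by several bacteria, the medium mean (11.18) was level with the Ls-33 arrays of 11.05 and 11.12 and NCFM was low at 9.75 and 9.62. CD44, the hyaluronan receptor, read 5.07 and 5.71 against 3.23 and 3.34 (difference 2.10, adjusted p = 4.98e-05). Other CD44 probe sets above the floor read lower and gave 0.31 to 0.64.

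Of caspases and pyroptosis genes 4 of 10 rose and 1 fell, and these counts too were the same with any single co-culture array left out. CASP4, the other human non-canonical inflammasome caspase beside CASP5, read 8.76 and 8.39 with Ls-33 and 6.46 and 6.09 with NCFM (4.94-fold, adjusted p = 3.62e-08). CASP10, an initiator caspase of death receptors, read 5.24 and 5.61 against 3.48 and 3.00 (4.55-fold, adjusted p = 3.73e-07), and the related CASP8 differed by 0.72 (adjusted p = 0.000141). A second probe set of CASP4 and of CASP10, each near the floor, was not called (0.27 and 0.35). The gene that fell was GSDME, a pore-forming gasdermin, by 0.48 (adjusted p = 0.000251). Kynurenine and nicotinamide enzymes gave 4 rises and 1 fall among 8 tested. Beside KYNU and NNMT, NAMPT, which salvages nicotinamide for NAD, read 10.12 and 10.05 against 8.95 and 8.94 (difference 1.14, adjusted p = 1.01e-08). The tryptophan dioxygenase TDO2 was called at 0.85 and QPRT, of the de novo NAD route, at -0.30, and each call was lost without an array (highest adjusted p = 0.0728 and 0.0565).

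Extracellular matrix genes and proteases gave 6 rises and 0 falls among 15. MMP1, interstitial collagenase, read 8.05 and 7.84 with Ls-33 and 6.66 and 5.78 with NCFM (difference 1.72, adjusted p = 5.77e-06), with a medium mean of 4.94 under both strains. PLAUR, the urokinase receptor, differed by 1.28 (adjusted p = 2.98e-07) with a medium mean of 7.66 close to the Ls-33 arrays of 7.77 and 7.71. MMP15, a membrane-anchored metalloprotease, differed by 0.97 (adjusted p = 5.41e-05), while another MMP15 probe set gave -0.25. The count of 6 was 3 without either Ls-33 array. Of mucins and trefoil factors 3 of 9 rose. TFF1, a secreted trefoil peptide of mucosal repair, read 10.58 and 10.44 against 8.56 and 8.71 (difference 1.87, adjusted p = 1.26e-12), and the membrane mucin MUC13 differed by 0.71 (adjusted p = 1.53e-05). MUC1 was called at 0.66 (adjusted p = 0.00745) from signals of 3.42 and 3.54 against 2.65 and 2.98, and lost its call without an array (highest adjusted p = 0.0984).

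**Figure D2:**
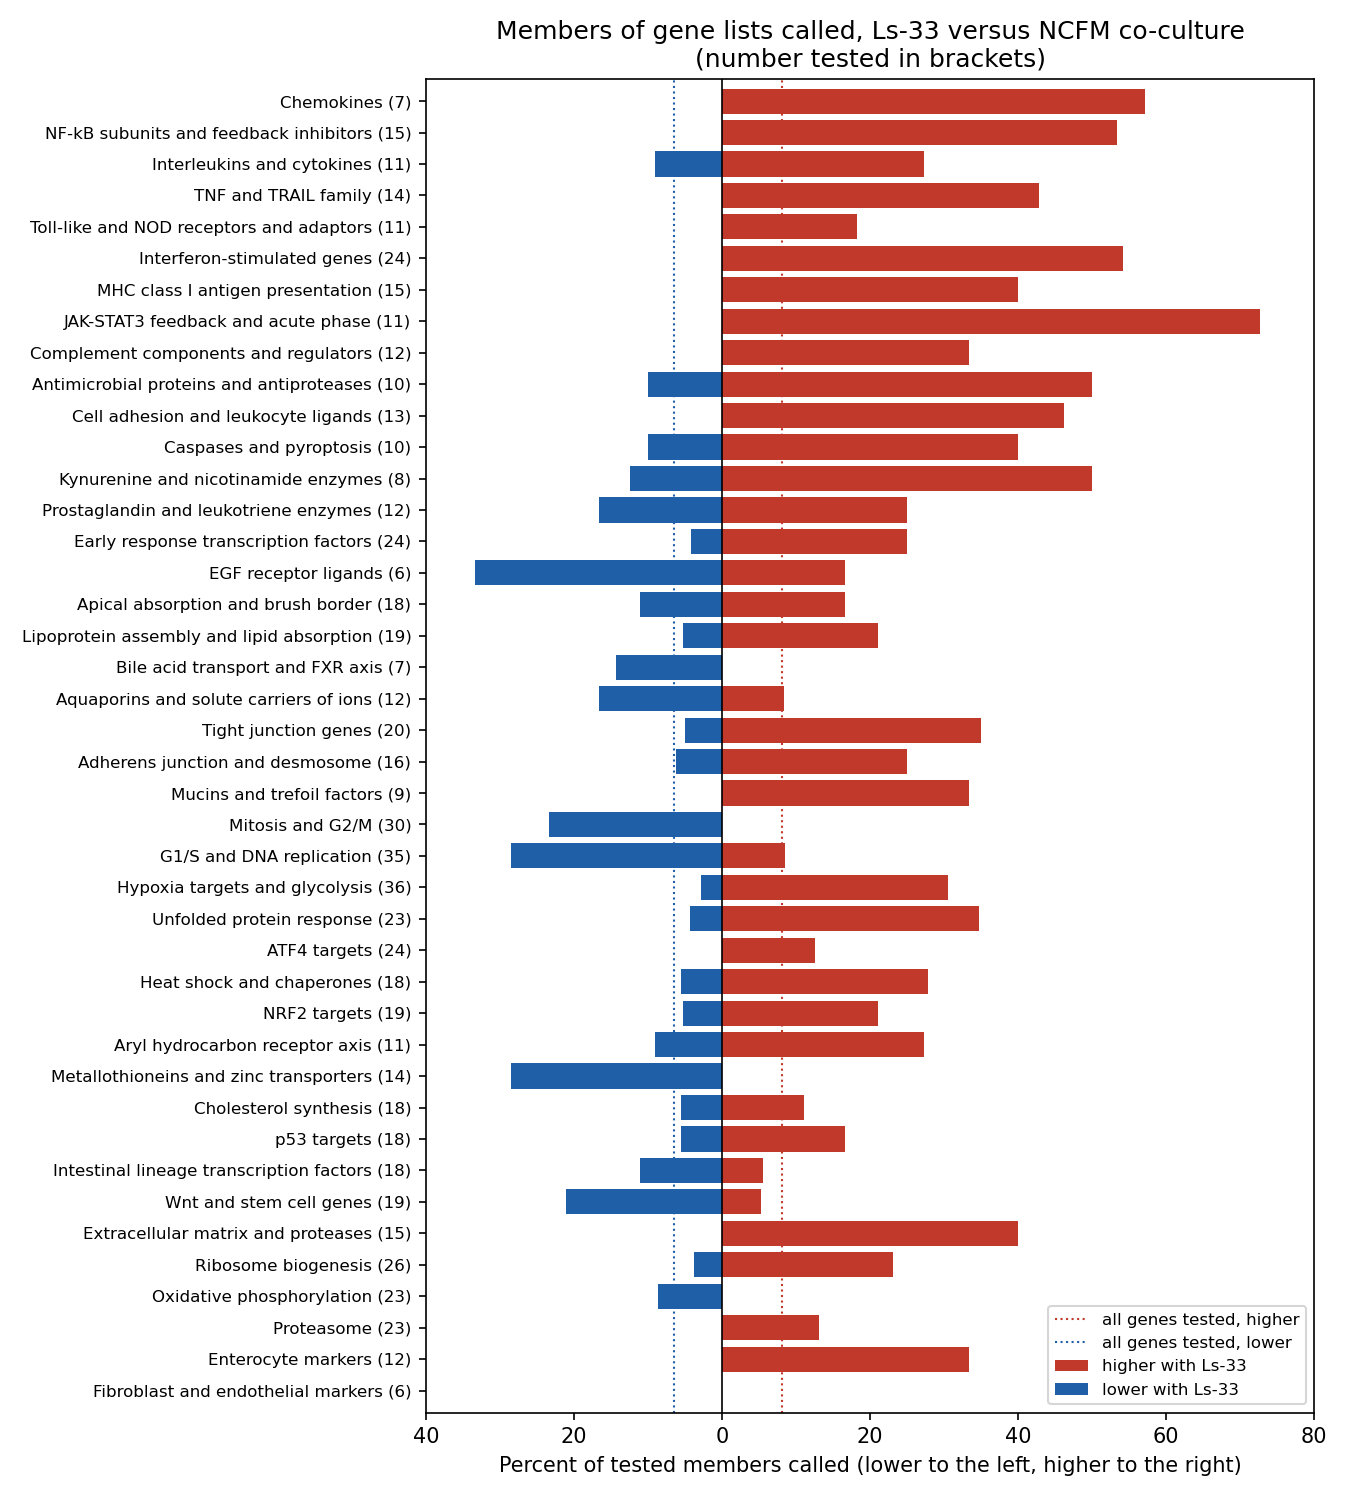
Percent of tested members called higher (bars to the right) or lower (bars to the left) with Ls-33 in each gene list with at least 5 members tested, with the number tested in brackets and the share over all genes tested dotted (8.13% higher, 6.55% lower). The immune, adhesion and acute-phase lists at the top have bars mainly to the right, and the mitosis, DNA replication and metallothionein lists mainly to the left.

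Of tight junction genes 7 of 20 rose and 1 fell, all by under 2-fold on the probe set used. CLDN1 read 10.31 and 10.30 with Ls-33 and 9.85 and 9.66 with NCFM (difference 0.54, adjusted p = 1.76e-05), the polarity protein PARD3 differed by 0.74 (adjusted p = 0.000234) and CLDN6 by 0.77 (adjusted p = 0.00579), and cingulin (CGN) fell by 0.35 (adjusted p = 0.00374). Other probe sets passed 2-fold, at 1.21 for CLDN1 and at 1.36 and 1.14 for PARD3. TJP1, the scaffold ZO-1, read 11.43 and 11.49 against 11.40 and 11.39 (difference 0.07, adjusted p = 0.438), and occludin (OCLN) read 11.38 and 11.32 against 11.33 and 11.35 (difference 0.01, SE 0.05, adjusted p = 0.9). Another OCLN probe set was called at 0.26 (adjusted p = 0.0145). For TJP1 another probe set gave 0.34 (adjusted p = 0.0811), and the gene was called in the refit with the probe set of widest interquartile range. The count of 7 was 4 without either Ls-33 array. Adherens junction and desmosome genes gave 4 rises and 1 fall among 16, led by desmoglein 2 (DSG2) at 0.32 (adjusted p = 0.000385), and the rises numbered 1 without Ls-33 replicate 1. Of 12 enterocyte markers 4 rose, KRT20 by 0.70 (adjusted p = 2.27e-08) and KRT8, KRT18 and KRT19 by 0.22, 0.21 and 0.17. The calls of KRT8, KRT18 and KRT19 were lost without a variance trend. That of KRT19 was also lost with the probe set of widest interquartile range. The homeobox factor CDX2 read 5.07 and 4.76 against 4.62 and 4.40 and was not called (adjusted p = 0.149).

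In the brush-border list 3 of 18 rose and 2 fell. SLC15A1, the peptide transporter PEPT1, read 8.51 and 8.48 with Ls-33 and 7.58 and 7.57 with NCFM (difference 0.92, adjusted p = 3.06e-07), with the medium mean at 8.88 near Ls-33 (another probe set gave -0.15). The disaccharidase MGAM differed by 1.14 (adjusted p = 0.000808), and USH1C, a microvillus scaffold, read 6.94 and 5.93 against 7.48 and 7.45 (difference -1.03, adjusted p = 0.00152). The USH1C difference ran from -1.53 to -0.52 with 1 array left out, and its other probe sets were not called, at -0.18 and -0.36 (adjusted p = 0.429 and 0.104). The brush-border falls numbered 5 without NCFM replicate 2. The fructose transporter SLC2A5 was far from medium with both strains but not called between them. It read 4.63 and 3.78 with Ls-33 and 4.35 and 4.52 with NCFM, which overlap (difference -0.22, adjusted p = 0.475), while the medium mean was 9.07. MTTP, which loads lipid onto apolipoprotein B, likewise read 5.86 and 5.59 against 5.57 and 5.22 (difference 0.34, adjusted p = 0.102) with a medium mean of 8.46. With 1 array left out the difference ran from -0.65 to 0.20 for SLC2A5 and from 0.16 to 0.51 for MTTP, so neither gene is shown to be equal between the strains. Of lipoprotein and lipid absorption genes 4 of 19 rose and 1 fell, led by the lipid droplet coat PLIN2 (0.38, adjusted p = 1.11e-05). APOA4 read 9.59 and 9.45 against 9.24 and 9.09 (difference 0.36, adjusted p = 0.000273) beside a medium mean of 12.11, and APOC3 fell by 0.28 (adjusted p = 0.000408). Among aquaporins and ion carriers AQP3 rose by 0.62 (adjusted p = 3.5e-08), and AQP10 fell by 0.68 (adjusted p = 0.000344) and AQP11 by 0.48 (adjusted p = 0.0153, lost without an array at 0.167). AQP10 read 6.47 and 6.09 with Ls-33 and 6.96 and 6.95 with NCFM, both far under the medium mean of 10.41.

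None of the genes lower with Ls-33 reached 3-fold. RAD9A, part of the clamp that loads at DNA damage, read 5.38 and 5.57 with Ls-33 and 6.95 and 6.92 with NCFM, a difference of -1.46 (adjusted p = 6.41e-06). MAOA, the monoamine oxidase of the mitochondrial outer membrane, read 5.07 and 5.41 against 6.93 and 6.35 (difference -1.40, adjusted p = 0.000107). The other MAOA probe sets were not called, at -0.45 and -0.10 (adjusted p = 0.199 and 0.862). For RAD9A the medium mean of 5.33 was level with Ls-33, so NCFM was the high group, while for MAOA the medium mean of 6.59 was level with NCFM. The lowest adjusted p of the 15 largest falls were those of AKAP9, a scaffold of the Golgi and centrosome, and SULT2A1. AKAP9 read 9.44 and 9.35 against 10.58 and 10.34 (difference -1.07, adjusted p = 8.36e-09). SULT2A1, which sulphates bile acids and steroids, read 8.88 and 8.92 against 9.93 and 10.05 (difference -1.09, adjusted p = 6.53e-09). TRAF5, an adaptor of TNF receptors, differed by -1.24 (adjusted p = 0.000532), with a medium mean of 4.20 under both strains. The autophagy relative ATG16L2 (-1.04), the kinesin KIFC2 (-1.10), the glycosidase ENGASE (-1.19) and titin (TTN, -1.19) complete the protein-coding genes among the 15 largest falls. Other TTN probe sets above the floor were not called, at -0.36 and -0.38 (adjusted p = 0.32 and 0.28).

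The other genes of that set of 15 were non-coding: the antisense transcripts GATA6-AS1 (-1.18), LMNTD2-AS1 (-1.13) and RASSF8-AS1 (-1.05), LINC01091 (-1.09), LINC00173 (-1.07) and the pseudogene GOLGA2P5 (-1.12). Other probe sets above the floor were not called for LMNTD2-AS1 (-0.26, adjusted p = 0.515) or GOLGA2P5 (-0.20 and -0.41, adjusted p = 0.626 and 0.245). GATA6-AS1 read 5.83 and 6.06 with Ls-33 and 7.05 and 7.21 with NCFM (adjusted p = 2.72e-05), with a medium mean of 5.57. Its neighbour GATA6, a lineage factor, differed by -0.22 (adjusted p = 0.0428, lost without an array at 0.367). Over all genes tested 4.05% were annotated as long non-coding RNA. Among genes called lower with Ls-33 the share was 5.79% (45 of 777), among those at least 2-fold lower 21.7% (5 of 23), and among those called higher 0.622% (6 of 965).

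**Figure D3:**
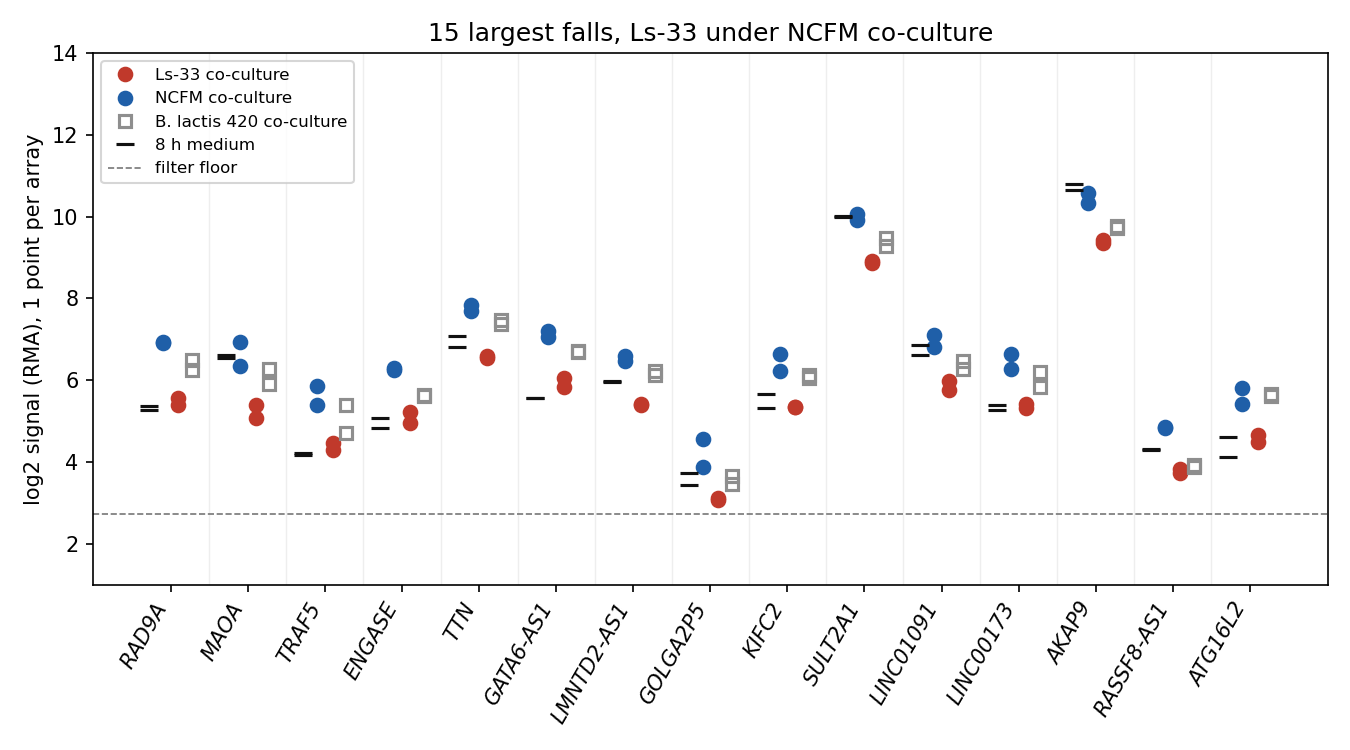
Log2 RMA signal (vertical axis) of the 15 genes with the largest falls, 1 point per array, for Ls-33, NCFM and B. lactis 420 co-culture and 8 h medium, with the filter floor dashed. The Ls-33 points lie under the NCFM points for each gene, and medium lies near Ls-33 for some genes (RAD9A, mean 5.33) and near NCFM for others (AKAP9, mean 10.72).

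Several proliferation genes fell with Ls-33. Of G1/S and DNA replication genes 10 of 35 fell and 3 rose, with a median of -0.26 over the 35 measured, and of mitosis genes 7 of 30 fell and 0 rose (median -0.20). GINS2 and GINS1, subunits of the replicative helicase complex, differed by -0.997 (adjusted p = 0.00051) and -0.61 (adjusted p = 0.00026), and MCM6, of the same helicase, by -0.55 (adjusted p = 8.56e-05). MCM6 read 8.82 and 8.71 with Ls-33 and 9.32 and 9.30 with NCFM. CDKN1A, the p21 inhibitor of cyclin-dependent kinases, rose by 0.57 (adjusted p = 0.00119), and cyclin D1 (CCND1) fell by 0.32 (adjusted p = 0.00908, lost without an array at 0.0931). CDK1 differed by -0.27, CENPF by -0.61 and PTTG1 by -0.27 (adjusted p = 0.00722, 0.00853 and 0.0173). These calls were fragile: each of the 3 mitosis genes named lost its call without at least 1 array. Mitosis falls numbered 4 without either NCFM array, 2 without Ls-33 replicate 1 and 1 without Ls-33 replicate 2. Replication falls numbered 8, 6, 4 and 7 in the same order of arrays left out, and quantile normalization gave 11 mitosis and 14 replication falls.

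Metallothioneins and zinc transporters gave 4 falls and 0 rises among 14. MT1F, a zinc- and copper-binding metallothionein, read 7.88 and 7.71 with Ls-33 and 8.58 and 8.50 with NCFM (difference -0.74, adjusted p = 5.58e-05). MT1X differed by -0.57 (adjusted p = 0.000876) and MT2A by -0.37 (adjusted p = 0.00213), close copies whose probe sets may cross-read. The zinc importer SLC39A5 fell by 0.44 (adjusted p = 0.00383, lost without an array at 0.0573). Wnt and stem cell genes gave 4 falls and 1 rise among 19, and the falls numbered 1 without Ls-33 replicate 2. ID1, an inhibitor of helix-loop-helix factors, rose by 0.76 (adjusted p = 9.57e-08) while its relative ID2 fell by 0.42 (adjusted p = 1.82e-06), with medium means of 10.44 and 12.00.

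Of hypoxia targets and glycolysis genes 11 of 36 rose and 1 fell (median over 37 measured 0.05). EGLN3, the prolyl hydroxylase that marks HIF for destruction and is itself a HIF target, read 7.18 on both Ls-33 arrays and 4.58 and 4.30 with NCFM (6.66-fold, adjusted p = 3.11e-10). Its medium arrays read 6.40 and 6.80, between the strains, with NCFM further from medium than Ls-33. HIF1A rose by 0.47 (adjusted p = 4.14e-05) and the glycolytic kinase PGK1 by 0.28 (adjusted p = 4.87e-05). The count of 11 was 8 without either NCFM array, 7 without Ls-33 replicate 1 and 6 without Ls-33 replicate 2. In the unfolded protein response 8 of 23 rose and 1 fell, with XBP1, the spliced transcription factor of that pathway, at 0.67 (adjusted p = 8.37e-07), the chaperone cofactor DNAJB9 at 0.66 (adjusted p = 1.49e-05), the chaperone HSPA5 at 0.25 (adjusted p = 0.0007) and HERPUD1 at -0.35 (adjusted p = 0.000354). Another XBP1 probe set gave -0.30. On the aryl hydrocarbon receptor axis, which senses indoles and other planar ligands, 3 of 11 rose and 1 fell: CYP1A1 read 11.15 and 11.19 with Ls-33 and 11.71 and 11.53 with NCFM (difference -0.45, adjusted p = 8.97e-06), whereas UGT1A6, which shares exons with its neighbours in the UGT1A cluster, differed by 0.83 (adjusted p = 0.000282) and TIPARP by 0.68 (adjusted p = 0.000471).

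Early response factors gave 6 rises and 1 fall among 24. KLF6 and KLF4, zinc finger factors of epithelial cells, differed by 0.29 and 0.39 (adjusted p = 0.00191 and 0.00497), while KLF10, a TGF-beta early gene, differed by -0.53 (adjusted p = 0.00282). The rises numbered 3 without NCFM replicate 2 and 2 without Ls-33 replicate 1. Among intestinal lineage factors 1 of 18 rose and 2 fell: the epithelial factor ELF3 differed by 0.37 (adjusted p = 0.00913), and the pioneer factor FOXA1 by -0.71 (adjusted p = 0.00458) beside GATA6. Of EGF receptors and ligands 1 of 6 rose and 2 fell: EGFR differed by 0.19, ERBB2 by -0.54 and ERBB3 by -0.25 (adjusted p = 0.041, 0.00579 and 0.0224). The calls of ELF3, FOXA1 and these 3 receptors were each lost without at least 1 array (highest adjusted p = 0.0591 for FOXA1 to 0.321 for EGFR).

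Prostaglandin enzymes gave 3 rises and 2 falls among 12. PTGS2, cyclooxygenase 2, read 8.32 and 8.25 with Ls-33 and 7.92 and 8.04 with NCFM (difference 0.31, adjusted p = 0.0379), and lost its call without an array (highest adjusted p = 0.194). HPGD, which degrades prostaglandins, differed by -0.16 (adjusted p = 0.0358), and lost its call without 3 of the 4 arrays (highest adjusted p = 0.192). Its other probe sets were not called and gave 0.25, 0.04 and -0.04. NRF2 targets gave 4 rises and 1 fall among 19, with AKR1B10, an aldo-keto reductase, at 0.998 (adjusted p = 0.000439) and its relative AKR1C3 at -0.28 (adjusted p = 0.000147). Of cholesterol synthesis genes 2 of 18 rose and 1 fell, near the shares over all genes tested (8.13% higher, 6.55% lower). The sterol sensor partner INSIG1 differed by 0.40 (adjusted p = 0.000144) and squalene epoxidase (SQLE) by 0.39 (adjusted p = 0.00081). Of p53 targets 3 of 18 rose and 1 fell, the death receptor TNFRSF10B by 0.30 (adjusted p = 0.000662), TIGAR, a regulator of glycolysis, by 0.47 (adjusted p = 0.000743) and CDKN1A as above. Heat shock genes gave 5 rises and 1 fall among 18, led by the mitochondrial chaperonin HSPD1 at 0.19 (adjusted p = 0.00215). Of its other probe sets, 1 was called at 0.39 (adjusted p = 1.47e-06) and 1 at -0.62 (adjusted p = 0.0339).

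Of ATF4 targets 3 of 24 rose and 0 fell, led by the pseudokinase TRIB3, which read 7.56 and 7.58 with Ls-33 and 7.01 and 7.15 with NCFM (difference 0.49, adjusted p = 0.00154) beside a medium mean of 8.85. Ribosome biogenesis gave 6 rises and 1 fall among 26, with the processing factor RRP12 at 0.82 (adjusted p = 0.00242) and the snoRNP protein NHP2 at -0.33 (adjusted p = 0.0039). Proteasome subunits gave 3 rises and 0 falls among 23, none above 0.33 (PSMD12, adjusted p = 0.00534). Oxidative phosphorylation genes gave 0 rises and 2 falls among 23, and 5 falls under quantile normalization. Bile acid transport gave 0 rises and 1 fall among 7, the ileal bile acid binder FABP6 at -0.44 (adjusted p = 0.019, lost without an array at 0.153). Over all genes tested 8.13% rose and 6.55% fell. The counts for ATF4 targets, proteasome, oxidative phosphorylation and bile acid transport lie near those shares or rest on few genes. They are therefore not results about those lists. Single arrays moved several of the list counts. Prostaglandin rises numbered 0 without NCFM replicate 1 or Ls-33 replicate 1, and heat shock rises 3 without NCFM replicate 2 or Ls-33 replicate 1. NRF2 rises numbered 7 without NCFM replicate 1, 1 without NCFM replicate 2 and 2 without Ls-33 replicate 2. Ribosome biogenesis rises numbered 3 without either NCFM array and 1 without Ls-33 replicate 2, proteasome rises 0 without Ls-33 replicate 2, cholesterol synthesis rises 4 without NCFM replicate 1, and ATF4 rises 1 without NCFM replicate 1 or Ls-33 replicate 2.

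The medium and B. lactis 420 arrays did not enter the Ls-33 minus NCFM difference, only its estimate of spread and the filter. Their means show where each strain lay beside other groups. Of the 114 genes at least 2-fold higher with Ls-33, the 8 h medium mean was under both strains for 50, between them for 58 and above both for 6, and it was nearer to NCFM than to Ls-33 for 92 (80.7%, against 53.1% of all genes tested). ICAM1 and EGLN3 are among the genes with medium between the strains, and OLR1 and TNFRSF9 among those with medium under both. Among all 965 genes called higher the medium mean was under both strains for 361, between for 413 and above both for 191, and among the 777 called lower for 204, 290 and 283. The B. lactis 420 mean lay between the strains for 826 of the 965 (85.6%) and 673 of the 777 (86.6%), and for 107 of the 114 and 22 of the 23 at 2-fold, against 43.4% of all genes tested. Genes chosen for a wide gap leave more room between the strains, so these shares describe the called genes and were not tested. LRG1 illustrates the order with 4.21 for NCFM, 7.05 for B. lactis 420 and 9.15 for Ls-33.

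**Figure D4:**
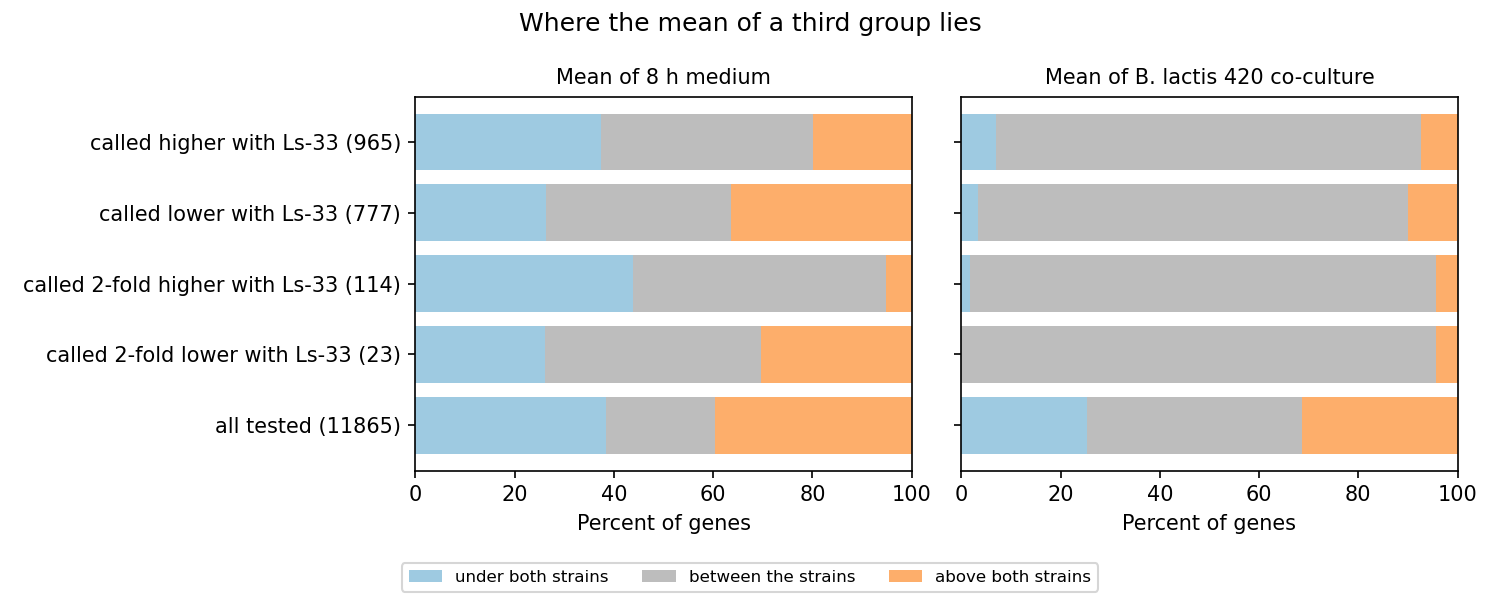
Percent of genes (horizontal axis) whose 8 h medium mean (left) or B. lactis 420 co-culture mean (right) lay under both strains, between them or above both, for genes called in each direction, those called with at least 2-fold, and all tested, with the number of genes in brackets. For B. lactis 420 the middle segment takes 85.6% of the genes called higher and 43.4% of all tested.

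The same strains were also compared through their cell-free supernatants, on arrays that share none with the co-culture contrast but differ from it in time (24 h) as well as in the absence of bacteria. There, 4 genes were called (0.0337%), while 766 had an unadjusted p under 0.05 (6.46%). CCL20 was again higher with Ls-33: it read 9.99 and 10.09 with Ls-33 supernatant and 9.18 and 9.04 with NCFM supernatant, a difference of 0.93 (adjusted p = 1.26e-06). NFKBIZ, a nuclear co-regulator of NF-kB, read 8.94 and 8.97 against 8.22 and 8.33 (difference 0.68, adjusted p = 0.000109). Its difference in co-culture was smaller, 0.24 (adjusted p = 0.0347), at higher levels of 10.35 and 10.27 against 10.05 and 10.08. That difference ran from 0.20 to 0.28 with 1 array left out, and its call was lost whichever of the 4 co-culture arrays was left out. The call was also lost with no filter, no variance trend, all 20 arrays in the fit or quantile normalization. Another NFKBIZ probe set gave 0.33 (adjusted p = 0.0552). SUMF2 (0.89, adjusted p = 0.043) and LINC01091 (-0.99, adjusted p = 0.0294) were called as well, and both calls were lost in 3 of the 4 fits without a supernatant array. Of these 4 genes, 3 (0.0253% of those tested) were also called in co-culture, in the same direction, and SUMF2 was not (difference 0.03, adjusted p = 0.923).

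The large co-culture differences were mostly not seen with supernatant. Over the 114 genes at least 2-fold higher with Ls-33 in co-culture the median difference was 1.35 there and 0.04 with supernatant, where 69 of them (60.5%) were above 0, against 52.9% of all genes tested. ICAM1 read 7.37 and 7.27 with Ls-33 supernatant and 7.32 and 7.36 with NCFM supernatant, which overlap. C3 (4.73 and 4.69 against 3.68 and 3.91, difference 0.91, adjusted p = 0.232) and CXCL8 (3.35 and 3.18 against 2.59 and 2.63, difference 0.66, adjusted p = 0.641) did not overlap with supernatant but were not called. The test of the difference between the 2 formats called 598 genes (5.04%), with the Ls-33 minus NCFM difference more positive in co-culture for 367 (3.09%) and more negative for 231 (1.95%). It gave 4.87 for CASP5 (SE 0.28, adjusted p = 7e-10), 3.19 for ICAM1 (SE 0.15, adjusted p = 6.11e-11) and 1.64 for CCL20 (SE 0.10, adjusted p = 2.16e-09). The time of exposure and the presence of live bacteria cannot be told apart in that test.

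**Figure D5:**
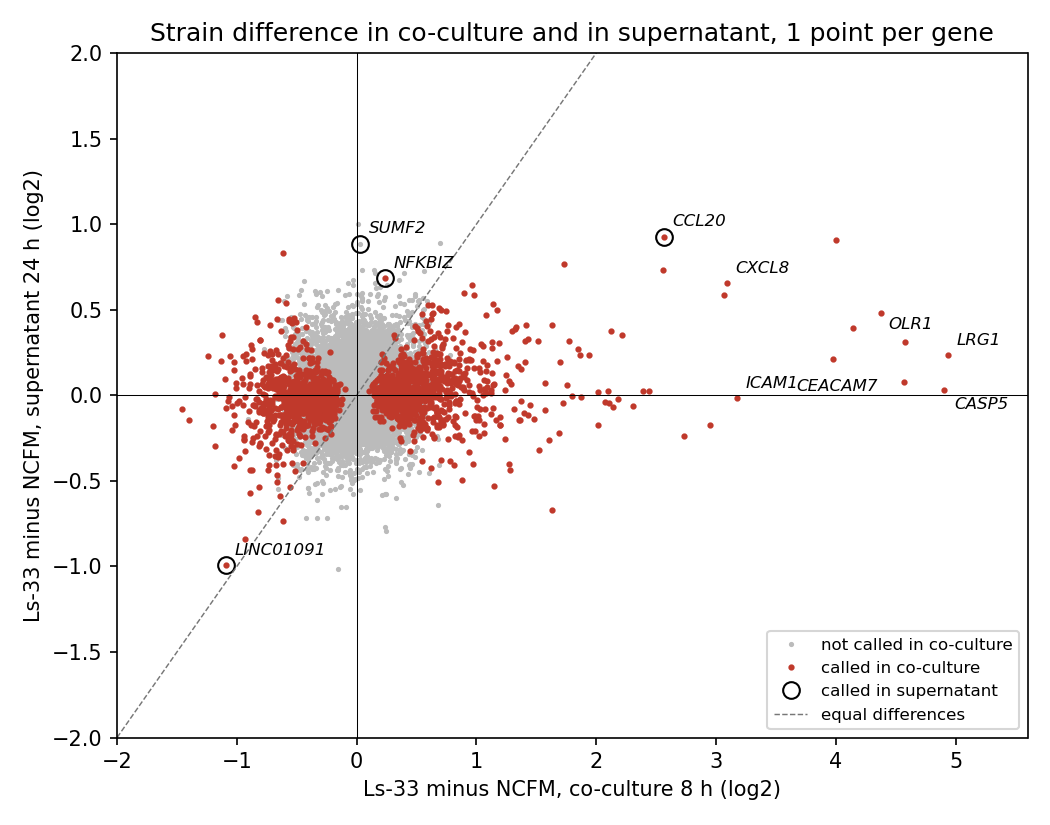
Ls-33 minus NCFM difference (log2) in 8 h co-culture (horizontal axis) against 24 h supernatant (vertical axis), 1 point per gene tested, red where called in co-culture and ringed where called with supernatant. The genes furthest to the right lie near 0 on the vertical axis (CASP5, 0.03), and CCL20 (2.56 and 0.93) is the ringed point at upper right.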

How the data were processed

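Total RNA of Caco-2 cells was labelled with biotin and read on 20 HG-U133 Plus 2.0 arrays. The deposited values are on the log2 scale. The submitters' processing notes name RMA as the authors' tool, which corrects background, quantile-normalizes, summarises probes and gives no detection call. Neither its version nor joint normalization of the probiotic and E. coli array sets is given in the sources used here.

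The platform annotation gave 1 gene symbol to 41091 of 54675 probe sets, more than 1 to 1801 and no symbol to 11721, with 62 controls left out. The probe set with the highest mean stood for each of 19775 genes. Genes under the 40th percentile of the mean over the 14 arrays of the probiotic set were left out. limma 3.58.1 in R 4.3.3 was fitted with a mean per group and a mean-variance trend. The number of arrays limits the precision. The fit was also run on simulated data with noise drawn separately for each array. Such data cannot show whether the arrays of a group come from separate cultures.

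Samples were grouped by title. Contrasts were Ls-33 minus NCFM in co-culture, the same with supernatant, and the difference between these (interaction). The alternatives were no filter and a 60th-percentile filter, no trend, fits on the compared groups or on all 20 arrays, quantile normalization, median centring, other probe sets, a replicate block and leaving out each array. The members and gene lists were chosen with earlier results of these data known. Named genes were the 15 largest rises and falls without overlap, up to 3 called members of each list by lowest adjusted p, the 8 largest interaction and supernatant differences, and, whatever their values, CXCL8, CXCL10, CCL20, ICAM1, TNFAIP3, NFKBIA, PTGS2, TJP1, OCLN, CLDN1, SLC2A5, MTTP and TNFSF10. 26 genes were added after their values were seen: CXCL17, REL, RELB, STAT3, SOCS3, FGA, CD44, CEACAM6, CASP8, GSDME, GBP1, IRF1, IFITM1, TAP1, PSMB9, TDO2, QPRT, DEFB1, REG4, CLDN6, CCND1, HSPA5, SLC39A5, KRT8, CDX2 and VIL1. IL1A was named besides these because it was the fall among the interleukins. GATA6-AS1, LINC01091 and other symbols follow the RefSeq gene table, to which the annotation was updated. Whether array replicate numbers pair samples is not stated in the labels. Over 21 pairs of groups the correlation of same-numbered deviations ran from -0.11 to 0.06. Such low values cannot exclude that same-numbered arrays shared a culture day, so no pairing was used in the main fit.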

Additional observations from a re-analysis of the deposited data

Results flagged for a closer look

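The Ls-33 minus NCFM difference was itself compared between 8 h co-culture and 24 h supernatant, and 598 of 11865 genes tested were called as different between the 2 formats (limma, adjusted p under 0.05). The 8 genes with the largest such differences were all more strongly separated in co-culture. The difference between formats was 4.87 for CASP5, 4.71 for LRG1, 4.495 for CEACAM7, 4.27 for OLR1, 3.90 for PI3, 3.77 for CXCL10, 3.74 for KYNU and 3.19 for ICAM1, on the log2 scale, and each kept its call with any single array of the 4 groups left out. Of the genes called with supernatant, CCL20 was separated more in co-culture (1.64), while NFKBIZ (-0.44) and SUMF2 (-0.86) were separated more with supernatant. The last 2 calls were lost without several single arrays, with adjusted p up to 0.0846 and 0.142. Live bacteria for 8 h and supernatant for 24 h differ in time as well as in format, and these cannot be told apart.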

How the results depend on the processing

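The co-culture total of 1742 was 1200 to 1913 under other fits, scalings and gene-level probe sets, 2601 with every probe set tested on its own, and 963 to 1515 with 1 array left out, where the lone array is assumed to vary as the other groups do. The supernatant total of 4 was 2 without a variance trend and 2 to 7 with 1 array left out. The interaction total of 598 was 308 without a trend, 925 with every probe set tested and 332 to 615 with 1 array left out. Quantile normalization gave 309 positive and 332 negative interaction calls, and median centring 481 and 179. A replicate block gave 1669, 6 and 566 calls, though it is not known whether the numbers pair samples (r = -0.01 between the co-cultures). Of 161 named genes called in co-culture, 106 kept the call in every refit that tested them, and 55 lost it in at least 1 refit. A gene that a refit left out counts as neither kept nor lost there: the 60th-percentile filter kept 132 of the 161. Differences turned sign as follows, and the cause was not tested. With the probe set of widest interquartile range: B2M -0.115, HPGD 0.254, CDK1 0.423, HSPD1 -0.616. With other probe sets also: PIGR -0.207, HPGD 0.0423, SLC15A1 -0.145, PLIN2 -0.0537, APOC3 0.0036, XBP1 -0.296, IDI1 0.0243, MMP15 -0.247, SOCS3 -0.199, TNFSF10 -0.0701 and -0.0119. With quantile normalization: SUMF2 -0.0153 and OCLN -0.0245. With 1 array left out: SUMF2 -0.167 to 0.230, OCLN -0.0175 to 0.0408, SLC2A5 -0.650 to 0.200, TNFSF10 -0.235 to 0.320, and the LINC01091 interaction -0.301 to 0.11. Signals near the filter floor limit the size of differences for CXCL10, PIGR and SOCS3.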
